A study of Homo sapiens with 12 samples.

Results

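Intronic loops are the circular RNAs that the deposited table of circRNAs puts in its intronic class, as opposed to loops made of exons or loops that overlap a gene in another way. They were taken as every table entry of that class with at least 1 back-splice junction read summed over the 12 libraries. Of the 923 intronic entries, 311 had no read and 612 had at least 1, which is 6.42% of the 9526 circRNAs with a read. These 612 loops carried 2241 of 71526 junction reads, or 3.13%.

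The libraries come from the established glioblastoma lines LN229 and T98G of human origin, grown in hypoxia (1% O2) or in normoxia (air). How long hypoxia lasted is not stated in the labels, and the medium was the same in all 4 groups. There were 3 libraries in each of the groups LN229 hypoxia, LN229 normoxia, T98G hypoxia and T98G normoxia, made from total RNA depleted of ribosomal RNA and sequenced to count circRNAs. The labels do not say whether replicates were separate cultures, so p-values measure only the spread between these libraries, which may be technical. Both lines are cultures without the other cells of a tumour.

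A circRNA is an RNA whose ends are joined, and it is recognised by reads that cross a junction in an order the linear gene does not have. Circular intronic RNAs are known to arise when the lariat cut out by the spliceosome keeps its ring instead of being opened by the debranching enzyme and degraded. Exonic circRNAs arise by back-splicing, in which a downstream splice donor is joined to an upstream acceptor, and they are the main class in human cells. The table does not define its intronic class, and the predicted length of the loop equalled its genomic span in 612 of 612 intronic loops, so the table removes no sequence from inside them.

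Depth was low. The libraries held 4298 to 7608 junction reads over all circRNAs, and 1 read stood for 146 to 203 CPM. CPM is a count scaled for depth and is used below to compare single libraries. The test itself used the counts, with depth entered in the fit. The exonic circRNA of CYP24A1, the vitamin D 24-hydroxylase gene, took very different shares of the libraries. It took 22.5%, 5.61% and 0.0177% of the reads in LN229 hypoxia, against 0.0353%, 0.0419% and 24.6% in LN229 normoxia. It took 19.4%, 18.0% and 21.3% in T98G hypoxia, against 0.00%, 0.0233% and 11.2% in T98G normoxia. Replicate 3 of both LN229 groups and of T98G normoxia thus stood apart from the other libraries of their groups on this circRNA, and shares are given below with and without it. None of 11 astroglial and neural stem markers was host to a circRNA with a read. Of 5 neuronal markers only MAP2 was, with 3 reads, and none of 4 endothelial, 4 immune and 5 fibroblast markers was. Linear transcripts were not measured, so the labelled cell type was not checked further.

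Some loops of the intronic class had a span equal to the distance between copies of a repeat inside their host's own mature transcript. Stretches of host transcripts are shown because this feature was not found in the exonic loops searched. For each loop whose host had a GENCODE release 29 transcript long enough, the transcript was searched for an exact direct repeat of at least 20 nt at a distance equal to the span. Of 356 intronic loops that were searched, 11 (3.09%) had one, with 33 reads in all, against 0 of 2433 exonic loops and 0 of 350 exonic loops whose predicted length equalled the span. In the other exonic loops the span is not a distance in the mature transcript, so only the 350 are a like comparison. Among sense overlapping loops, which overlap a gene on its own strand, it was 7 of 248 (2.82%). All 11 were absent from every catalogue the table cites. Repeats were found by sequence alone, since the loops' positions are on hg19 and could not be placed on the transcripts. The windows below are thus not the loops' own sequences. Each was picked around the longest identical stretch at that distance anywhere in the host's coding sequence.

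AHNAK2, a giant scaffold protein of repeated units, had 2 intronic loops of 495 nt each (chr14:105412026-105412520 and chr14:105413223-105413717, minus strand, hg19), which is the repeat distance of its coding sequence (68.7% of positions identical). The first had 2, 0 and 2 reads in LN229 hypoxia, against 0, 0 and 2 in LN229 normoxia, and 0, 1 and 1 in T98G hypoxia, against 0, 0 and 1 in T98G normoxia, so the groups overlapped. The second had 2, 1 and 0 reads in T98G hypoxia and none in the other libraries. Below are 90-nt windows of the GENCODE coding sequence (transcript AHNAK2-201) that lie 495 nt apart. Bases that differ between copies would be in capitals, and these copies are identical at all 90 positions.
AHNAK2 coding positions 8898 to 8987: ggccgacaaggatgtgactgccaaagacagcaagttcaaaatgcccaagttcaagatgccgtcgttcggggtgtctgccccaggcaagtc
AHNAK2 coding positions 9393 to 9482: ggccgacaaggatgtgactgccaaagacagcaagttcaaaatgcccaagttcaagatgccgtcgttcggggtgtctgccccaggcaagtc

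AHNAK, its paralogue, had 5 intronic loops with 13 reads, and 2 of them (chr11:62297848-62298231 and chr11:62299267-62299650, minus strand) spanned 384 nt, the distance at which 52.6% of its coding positions repeat. The other AHNAK loops spanned 192, 214 and 810 nt, and the search found no such repeat in the host's transcripts at these distances. The most read of the 5 was the 192-nt loop, with 7 reads in 5 libraries. The windows from AHNAK-202 agree at 78 of 90 positions, with the differing bases in capitals.
AHNAK coding positions 6492 to 6581: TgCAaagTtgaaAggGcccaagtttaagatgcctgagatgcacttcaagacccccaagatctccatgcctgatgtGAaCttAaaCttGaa
AHNAK coding positions 6876 to 6965: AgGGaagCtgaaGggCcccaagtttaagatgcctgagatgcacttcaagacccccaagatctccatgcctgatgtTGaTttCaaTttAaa

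RRBP1, a ribosome-binding protein of the endoplasmic reticulum with short tandem repeats, had an intronic loop of 150 nt (chr20:17640310-17640459, minus strand), 5 times its 30-nt repeat. This loop had 3 reads, all in LN229 normoxia replicate 2, and it is among the 3 shortest of the class. Its windows (RRBP1-204) agree at 87 of 90 positions, again with differing bases in capitals.
RRBP1 coding positions 1271 to 1360: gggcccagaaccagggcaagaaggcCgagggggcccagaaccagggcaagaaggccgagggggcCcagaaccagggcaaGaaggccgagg
RRBP1 coding positions 1421 to 1510: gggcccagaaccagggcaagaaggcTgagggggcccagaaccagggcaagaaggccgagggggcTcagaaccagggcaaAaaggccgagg

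The other repeat-matched intronic loops were in ZNF573 (252 nt), TP73-AS1 (716 nt), ZNF587B (168 nt), ZNF765 (167 nt), COQ4 (1264 nt) and GPI (150 nt), with repeats of 20 to 32 nt and 2 or 3 reads each. The part of such repeats in the junction reads was not tested.

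**Figure D1:**
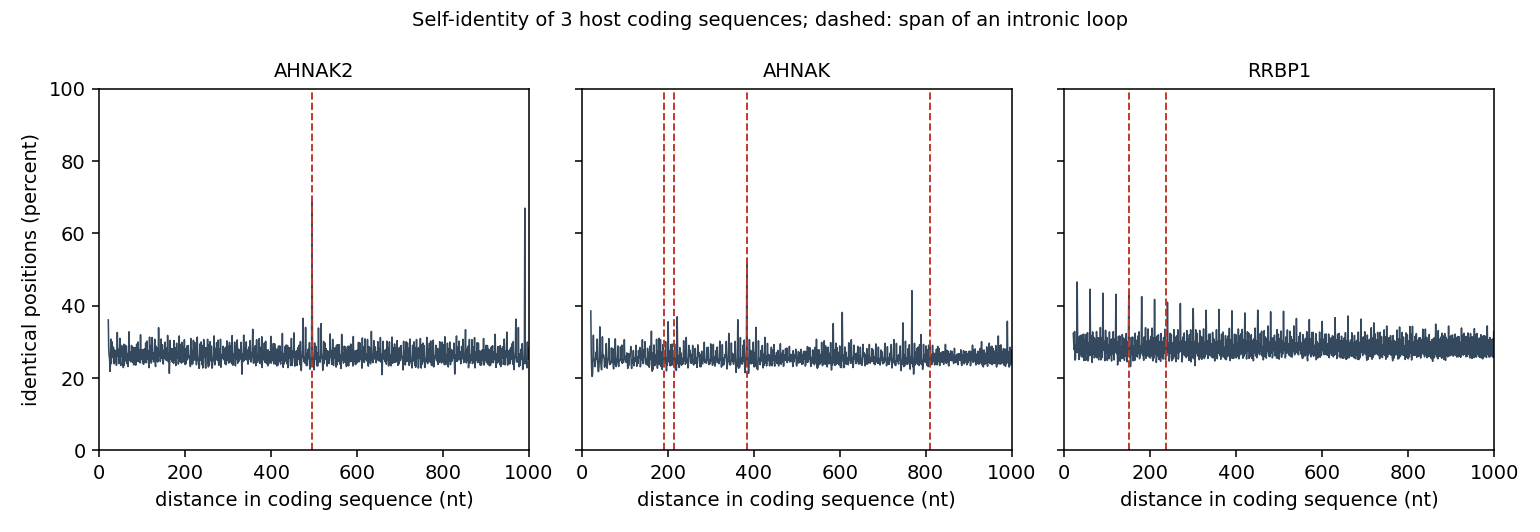
Percent of identical positions (vertical axis) between the coding sequence of AHNAK2, AHNAK and RRBP1 and itself shifted by the distance on the horizontal axis in nt; dashed lines mark the spans of intronic loops of the same host. The AHNAK2 loops of 495 nt, 2 AHNAK loops of 384 nt and the RRBP1 loop of 150 nt fall on peaks, and the other AHNAK and RRBP1 loops do not.

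Intronic loops were short. Their genomic span ran from 150 to 94803 nt with a median of 1812.5 nt, against a median of 11007.5 nt in exonic and 16051 nt in sense overlapping loops. Spans under 500 nt made up 25.5% of intronic and 3.39% of exonic loops, and spans over 10000 nt made up 18.8% of intronic and 53.0% of exonic loops. Taken library by library over the loops with a read there, the median span was 2047 ± 838 nt in intronic and 10673 ± 447 nt in exonic loops (SD, n = 12 libraries). It was lower for intronic loops in 12 of 12 libraries (exact paired sign-flip permutation test over libraries, two-sided, p = 0.000488, adjusted p = 0.000488 over 4 measures). That is the smallest p this design allows. Loops read in several libraries enter each of them, so here and in the tests below the 12 libraries are not fully independent units. The span of a loop and its catalogue listing are also the same in every library. For span and listing the p-values thus restate the difference over all loops and add no separate support. Against sense overlapping loops (15267 ± 1327 nt) it was also lower in 12 of 12 libraries (exact permutation test, adjusted p = 0.000651).

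The shortest loops were in CACNA1C, a calcium channel gene, GPI, a glycolytic enzyme gene, and RRBP1, at 150 nt each and with 1, 3 and 3 reads. The longest were in PDE4D, a cyclic AMP phosphodiesterase gene (94803 nt, 2 reads), GLIS3, a zinc finger transcription factor gene (94738 nt, 3 reads), and PRB4, a salivary proline-rich protein gene (92780 nt, 2 reads).

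Most intronic loops were not listed elsewhere. The table found 142 of 612 (23.2%) in circBase, a catalogue of published circRNAs, and 7 in single publications, and it gave 463 (75.7%) as unlisted. Of 7784 exonic loops 85.9% were in circBase and 1012 were unlisted. Per library, 35.9 ± 4.1% of intronic and 93.1 ± 0.6% of exonic loops with a read were in circBase, lower for intronic loops in 12 of 12 libraries (exact permutation test, adjusted p = 0.000488). Sense overlapping loops lay between, at 55.1 ± 2.6%, and intronic loops were lower than these in 12 of 12 libraries as well (exact permutation test, adjusted p = 0.000651). Listing went with span: 2.97% of intronic loops under 300 nt and 38.2% of those from 3000 to under 10000 nt were in circBase. In exonic loops of these sizes the shares were 84.3% and 86.5%. Unlisted intronic loops had a median span of 1199 nt, and those in circBase 4457 nt.

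**Figure D2:**
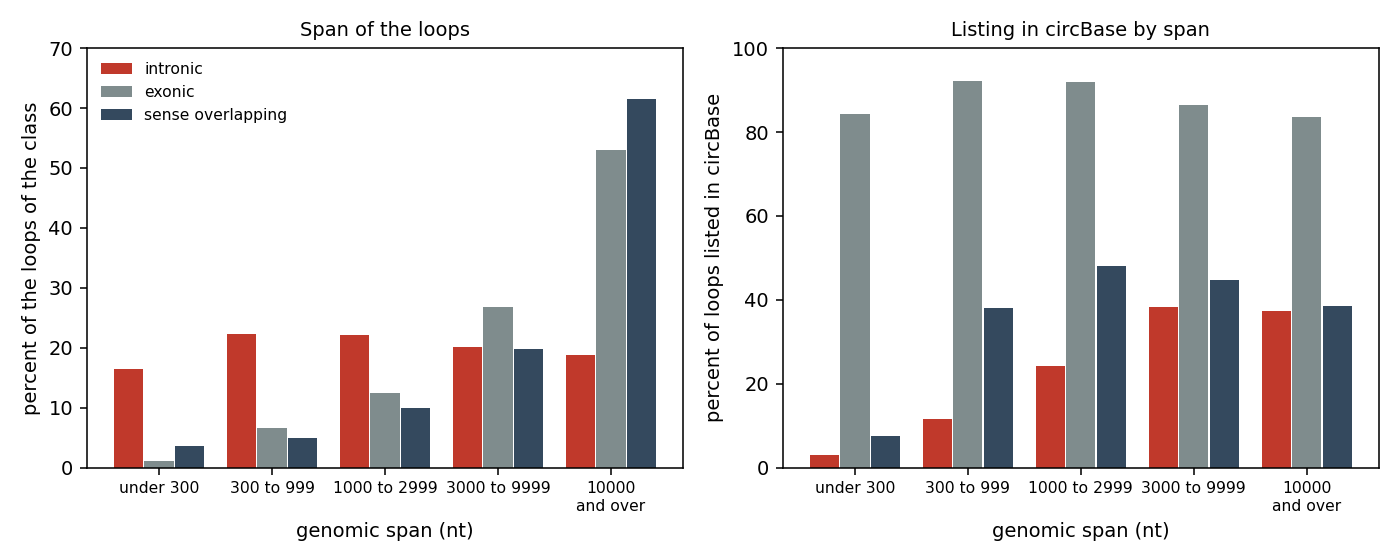
Left, percent of the loops of each class (vertical axis) in 5 bins of genomic span in nt (horizontal axis), and right, percent of the loops in each bin listed in circBase; red bars are intronic, grey exonic and dark blue sense overlapping loops. Under 300 nt lie 16.5% of intronic, 1.14% of exonic and 3.63% of sense overlapping loops, and 2.97%, 84.3% and 7.50% of these are listed.

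The loops were sparse. Over the 12 libraries together, 51 had 1 read and 311 had 2, so that 59.2% had at most 2 reads; 33 had at least 10 and the highest count was 43. The 20 loops with most reads held 486 reads, or 21.7% of the intronic reads. In a library with a read, an intronic loop had 1.78 ± 0.11 reads on average and an exonic loop 2.41 ± 0.33 (SD, n = 12), lower for intronic loops in 12 of 12 libraries (exact permutation test, adjusted p = 0.000488). Against sense overlapping loops (2.02 ± 0.12) they were lower in 11 of 12 libraries (exact permutation test, adjusted p = 0.000977).

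Recurrence was low as well: 373 loops (60.9%) were read in 1 library, 239 in 2 or more, 40 in 6 or more, and 1, that of C3orf58, in all 12. Of exonic loops 31.8% were read in 1 library and 17.9% in 6 or more, and of sense overlapping loops 51.8% and 9.26%. Among intronic loops these shares were 25.4% and 14.8% for those in circBase, near the exonic ones, and 72.4% and 3.89% for unlisted ones. The part of listing in the contrast between classes was not tested. Of the intronic loops with a read in a library, 41.4 ± 3.6% had a read in another library of the same group, against 60.3 ± 3.6% of exonic loops, lower in 12 of 12 libraries (exact permutation test, adjusted p = 0.000488). Against sense overlapping loops (49.1 ± 4.6%) the difference was -7.70 percentage points, where against exonic loops it was -18.8, and the share was also lower in 12 of 12 libraries (exact permutation test, adjusted p = 0.000651). Each library's share was computed from the other libraries of its group, so the 12 values depend on one another. The p-values for recurrence thus do not rest on 12 independent units. The classes also differed in reads per loop, given above, whose part in this contrast was not tested. At exactly 2 reads over all libraries, both reads lay in the same library in 289 of 311 intronic loops (92.9%) and in 1367 of 1908 exonic ones (71.6%), while in sense overlapping loops it was 418 of 472 (88.6%). By listing, it was 269 of 281 among unlisted intronic loops (95.7%) and 19 of 28 among those in circBase (67.9%). How the caller's own filter on reads acted on unlisted loops is unknown here, and its part was not tested.

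**Figure D3:**
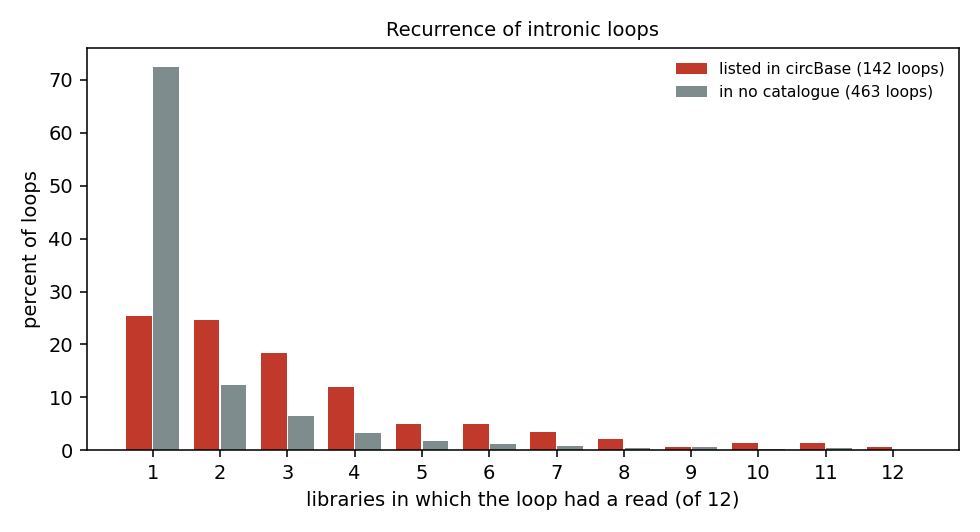
Percent of intronic loops (vertical axis) by the number of libraries, of 12, in which the loop had a read (horizontal axis); red bars are the 142 loops in circBase and grey bars the 463 in no catalogue. Of the listed loops 25.4% and of the unlisted ones 72.4% were read in 1 library.

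Hosts were many. The 612 loops came from 506 hosts, of which 437 had 1 intronic loop, 69 had 2 or more and 14 had 3 or more. GENCODE types could be matched by symbol for most: 426 hosts were protein-coding and 64 were not matched. The transcript the table assigned was an Ensembl transcript for 346 intronic loops (56.5%) and 3.42% of exonic loops, while RefSeq messenger RNAs stood for 22.2% of intronic and 92.7% of exonic loops. Of those 346, 173 were protein-coding, 51 processed transcripts without a reading frame, 40 targets of nonsense-mediated decay and 21 retained-intron transcripts, and 41 were not matched in GENCODE release 29. For 242 hosts the table also held an exonic loop with a read. The median intronic loop made up 42.6% of all junction reads of its host, and for 218 loops the host had no other circRNA read.

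In all, 62 intronic loops (10.1%) ended at the same base as an exonic loop with a read, 29 at the lower and 33 at the upper coordinate, and none at both. This was 26.1% of the loops in circBase and 5.18% of the unlisted ones. An end shared with another intronic loop was found in 74 loops. CRIM1, which encodes a transmembrane protein that binds bone morphogenetic proteins, had 4 intronic loops with 37 reads, all ending at 36623930 on chromosome 2 and spanning 8816, 18431, 27680 and 37884 nt. PTPRG, a receptor tyrosine phosphatase gene, had 3 that all ended at 61609229 on chromosome 3 and had 19, 1 and 1 reads. The pair of CLK3, a kinase of splicing factors, shared its start at 74892842 on chromosome 15 and differed by 2 nt at the other end (spans of 911 and 913 nt).

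The hosts with most intronic loops were not nuclear genes. The identifiers JA760602 and G087361, which the files do not annotate further, had 16 and 7 loops on the mitochondrial genome, which contains no introns in human cells. These 23 loops had 176 reads, 7.85% of all intronic reads, and none was in circBase. The 16 of JA760602 lay on the minus strand and spanned 152 to 567 nt. Mitochondrial intronic loops summed to 12, 15 and 15 reads in LN229 hypoxia, against 13, 18 and 29 in LN229 normoxia. They summed to 21, 17 and 7 in T98G hypoxia, against 7, 7 and 15 in T98G normoxia, so the groups overlapped in both lines. After these and AHNAK, the hosts with most were CRIM1, TTC28, CSGALNACT1 and GRB10 with 4 each; GRB10 encodes an adaptor of the insulin receptor and CSGALNACT1 an enzyme of chondroitin sulphate synthesis.

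Intronic loops took 2.55%, 3.26% and 3.90% of the junction reads in the LN229 hypoxia libraries, against 3.60%, 4.48% and 2.93% in LN229 normoxia. In T98G hypoxia they took 2.59%, 3.10% and 2.45%, against 3.79%, 3.35% and 2.31% in T98G normoxia. The lowest share, in T98G normoxia replicate 3, had a Wilson 95% interval of 1.96% to 2.72%, and the highest, in LN229 normoxia replicate 2, one of 3.93% to 5.11%; these cover counting error only. The mean was 3.24 ± 0.68% in LN229 hypoxia and 3.67 ± 0.78% in LN229 normoxia, and 2.71 ± 0.34% in T98G hypoxia and 3.15 ± 0.76% in T98G normoxia (SD, n = 3 each). The groups overlapped within both lines and between lines. Within the lines this overlap came from replicate 3, which stood apart on the CYP24A1 circRNA above. Replicates 1 and 2 of LN229 hypoxia lay below replicates 1 and 2 of LN229 normoxia. Every T98G hypoxia library lay below replicates 1 and 2 of T98G normoxia. These comparisons were picked after the values were seen and were not tested. The share moved with that of the CYP24A1 circRNA, which enters the total. With its reads left out of the total the shares were 3.29%, 3.46% and 3.90% in LN229 hypoxia, against 3.60%, 4.49% and 3.89% in LN229 normoxia. They were 3.21%, 3.78% and 3.11% in T98G hypoxia, against 3.79%, 3.35% and 2.60% in T98G normoxia. These groups overlapped too, and in T98G the order of the means turned, to 3.37 ± 0.36% in hypoxia and 3.25 ± 0.60% in normoxia. Replicates 1 and 2 of LN229 hypoxia again lay below those of LN229 normoxia. In T98G the overlap no longer came from replicate 3 alone, since hypoxia replicate 2 lay above normoxia replicate 2.

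**Figure D4:**
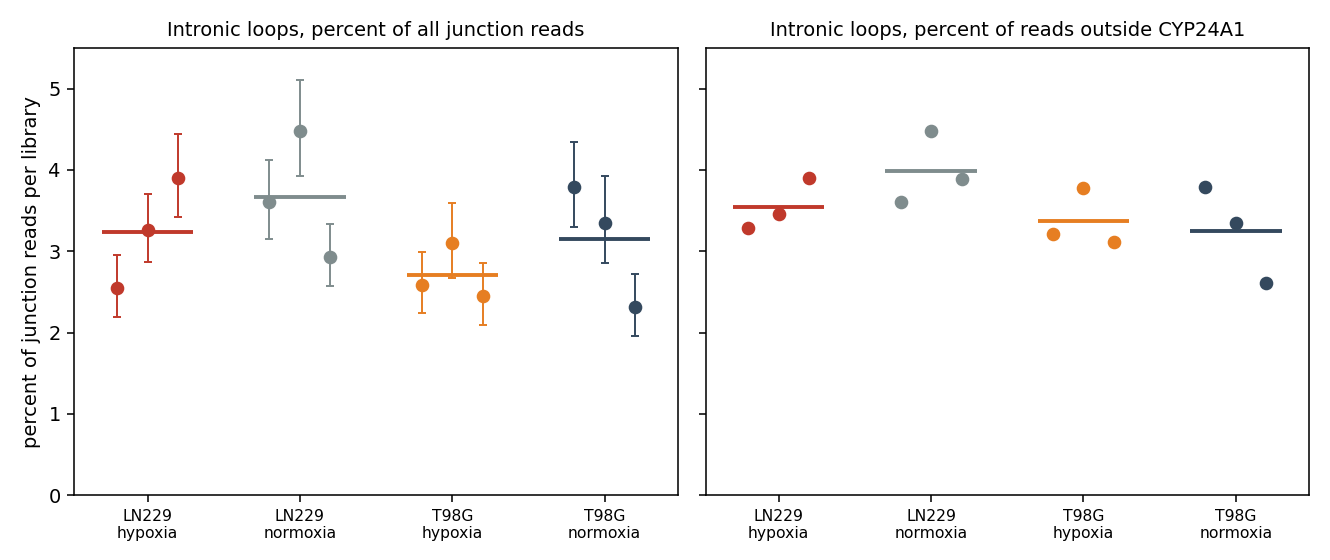
Percent of junction reads in intronic loops in each of 12 libraries (points; vertical axis) by group (horizontal axis), with the group mean as a bar; left of all reads, with Wilson 95% intervals, and right of the reads outside the CYP24A1 circRNA. Hypoxia and normoxia libraries overlap in both lines in both panels.

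The number of intronic loops with a read was 97, 124 and 114 in LN229 hypoxia, against 112, 121 and 117 in LN229 normoxia, and 94, 102 and 93 in T98G hypoxia, against 107, 85 and 90 in T98G normoxia. Over 3 libraries each, LN229 hypoxia held 259 different loops, LN229 normoxia 272, T98G hypoxia 219 and T98G normoxia 216, and 41 loops were read in all 4 groups. LN229 hypoxia and LN229 normoxia shared 98 loops, 37.8% of the first list and 36.0% of the second. T98G hypoxia and T98G normoxia shared 75, or 34.2% and 34.7%. T98G normoxia and LN229 normoxia shared 100, or 46.3% and 36.8%.

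Of the 612 loops, 4 passed the filter of at least 5 reads in at least 3 libraries and were tested with edgeR's quasi-likelihood test, fitted on the whole table with Benjamini-Hochberg adjustment over 244 circRNAs. They were the loops of ZNF292, LINC01004, DGKD and JA760602. None passed an adjusted p of 0.05 in any of 6 comparisons. Over all 244 tested circRNAs the share called was 0.0% for hypoxia against normoxia in LN229, 0.41% in T98G and 4.1% for the average over both lines. It was 0.0% for T98G against LN229 in normoxia, 0.0% for T98G against LN229 in hypoxia and 0.0% for the difference between the responses of the lines. At an unadjusted p below 0.05, the ZNF292 loop alone passed, in T98G hypoxia against normoxia (20.9% of all tested circRNAs did), in the average (19.3%), in T98G against LN229 in hypoxia (8.2%) and in the difference between the responses (7.79%). It passed neither in LN229 (8.2%) nor in T98G against LN229 in normoxia (1.64%). DESeq2 called none of the 4 either.

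The loop with most reads, 43, came from ZNF292, a gene of a zinc finger transcription factor whose circRNA is known from endothelial cells as responsive to low oxygen. It spans 8281 nt (chr6:87920169-87928449, plus strand) and is in circBase. It had 2, 5 and 5 reads in LN229 hypoxia, against 8, 6 and 1 in LN229 normoxia, so the groups overlapped. In T98G it had 0, 0 and 1 reads in hypoxia, against 7, 3 and 5 in normoxia, so that every hypoxia library lay below every normoxia library. The log2 fold change, hypoxia over normoxia, was -3.46 in T98G (SE 1.13, edgeR adjusted p = 0.119) and -0.39 in LN229 (SE 0.78, edgeR adjusted p = 0.912). From the summed reads alone the ratio in T98G was 0.0550, with an exact 95% counting interval of 0.00131 to 0.357 that leaves out the spread between libraries. The responses of the lines differed by -3.07 (T98G minus LN229, SE 1.40), which did not pass (edgeR adjusted p = 0.568). Averaged over the lines the log2 fold change was -1.92 (SE 0.70, edgeR adjusted p = 0.142). It passed without LN229 normoxia replicate 3, which stood apart above: the edgeR adjusted p was then 0.0170 for the average and 0.0261 for T98G. In that fit 17.9% and 12.7% of all 229 tested circRNAs were called in these comparisons, so calls rose across the table and the ZNF292 loop was 1 of 41 and 1 of 29. It was not tested within the T98G libraries alone, where it did not pass the filter and 22.3% of 130 circRNAs were called.

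The ZNF292 loop ended at the same upper coordinate as the gene's main exonic circRNA (chr6:87925621-87928449, predicted length 370 nt, 100 reads). That exonic loop had 7, 4 and 6 reads in LN229 hypoxia, against 13, 8 and 5 in LN229 normoxia. It had 11, 5 and 5 reads in T98G hypoxia, against 10, 16 and 10 in T98G normoxia, so its T98G groups overlapped; the difference between the loops of this host was not tested. Intronic loops made up the smaller part of the host's junction reads, at 27.4% for the loop with 43.

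LINC01004, a long non-coding RNA gene, had the second most read loop, unlisted, with 42 reads over 3892 nt (chr7:104645765-104649656, minus strand), and no other circRNA read. It had 4, 4 and 4 reads in LN229 hypoxia, against 2, 7 and 5 in LN229 normoxia. It had 0, 2 and 2 in T98G hypoxia, against 5, 2 and 5 in T98G normoxia, which tied at 2 reads but did not overlap in CPM. Its log2 fold change in T98G was -1.43 (SE 0.90, edgeR adjusted p = 0.370) and in LN229 -0.28 (SE 0.76, edgeR adjusted p = 0.912). The loops of ZNF292 and LINC01004 were thus the 2 of 4 whose T98G groups did not overlap in CPM, both lower in hypoxia; 36.9% of all tested circRNAs did not overlap there, and 19.3% did so with hypoxia lower. In LN229 it was none of 4, against 9.84% of all tested circRNAs. In hypoxia these loops also lay lower in T98G than in LN229 without overlap, in a comparison that shares the T98G hypoxia libraries with the one above, where 15.6% of all tested circRNAs did not overlap and 7.38% were lower. In normoxia none of the 4 separated the lines (9.43% of all tested circRNAs did).

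DGKD, which encodes a kinase that turns diacylglycerol into phosphatidic acid, had a loop of 10193 nt (chr2:234296903-234307095, plus strand) with 36 reads. It had 5, 2 and 1 reads in LN229 hypoxia, against 0, 1 and 7 in LN229 normoxia, and 9, 3 and 2 in T98G hypoxia, against 1, 4 and 1 in T98G normoxia. The groups overlapped in both lines, with a log2 fold change of 1.15 in T98G (SE 1.06, edgeR adjusted p = 0.562) and -0.01 in LN229 (SE 0.92, edgeR adjusted p = 0.997). It began at the same base as the host's main exonic loop, which had 30 reads. The mitochondrial loop of JA760602 (chrM:14068-14413, minus strand, 34 reads) had 3, 0 and 4 reads in LN229 hypoxia, against 2, 3 and 3 in LN229 normoxia. It had 5, 5 and 2 in T98G hypoxia, against 0, 0 and 7 in T98G normoxia, where the high value is again replicate 3. Its log2 fold change was 0.87 in T98G (SE 1.11, edgeR adjusted p = 0.678) and -0.20 in LN229 (SE 1.15, edgeR adjusted p = 0.964). Over the 12 libraries, Spearman's rho of CPM with the ZNF292 loop was 0.44 for LINC01004, 0.02 for CPNE1, -0.35 for this JA760602 loop and -0.85 for DGKD, as a description of loops that share libraries and their depth.

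The other most read loops were not tested. CPNE1, a calcium-dependent membrane-binding protein gene, had a loop of 5487 nt in circBase with 35 reads, 89.7% of the host's. It had 2, 4 and 2 reads in LN229 hypoxia, against 2, 4 and 2 in LN229 normoxia, and 5, 0 and 4 in T98G hypoxia, against 3, 4 and 3 in T98G normoxia. C3orf58 had 28 reads over 4295 nt, with 2, 2 and 2 reads in LN229 hypoxia, against 6, 2 and 1 in LN229 normoxia, and 3, 1 and 1 in T98G hypoxia, against 2, 5 and 1 in T98G normoxia. PGAP1, an enzyme gene of the glycosylphosphatidylinositol anchor, NAIP, an inflammasome sensor gene with copies nearby on chromosome 5, and ZNF394, a zinc finger gene, had 29 reads each. Reads of NAIP, ZNF286B (16 reads) and the HLA genes are uncertain, since near-identical copies could take or lend them. The PTPRG loop of 1093 nt had 0, 8 and 4 reads in LN229 hypoxia, against 1, 1 and 2 in LN229 normoxia, and 1, 0 and 1 in T98G hypoxia, against 0, 1 and 0 in T98G normoxia. A loop under the identifier G076101 had 13 of its 14 reads in LN229 hypoxia replicates 2 and 3. A loop of 343 nt on chromosome 11, under an assembly identifier with no gene name, had 18 reads and was read in every library but those of T98G normoxia. The other 2 loops of this identifier had 4 reads, 2 in each of T98G normoxia replicates 1 and 3. How many of all circRNAs show the pattern of the 343-nt loop was not counted, and it was not tested.

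**Figure D5:**
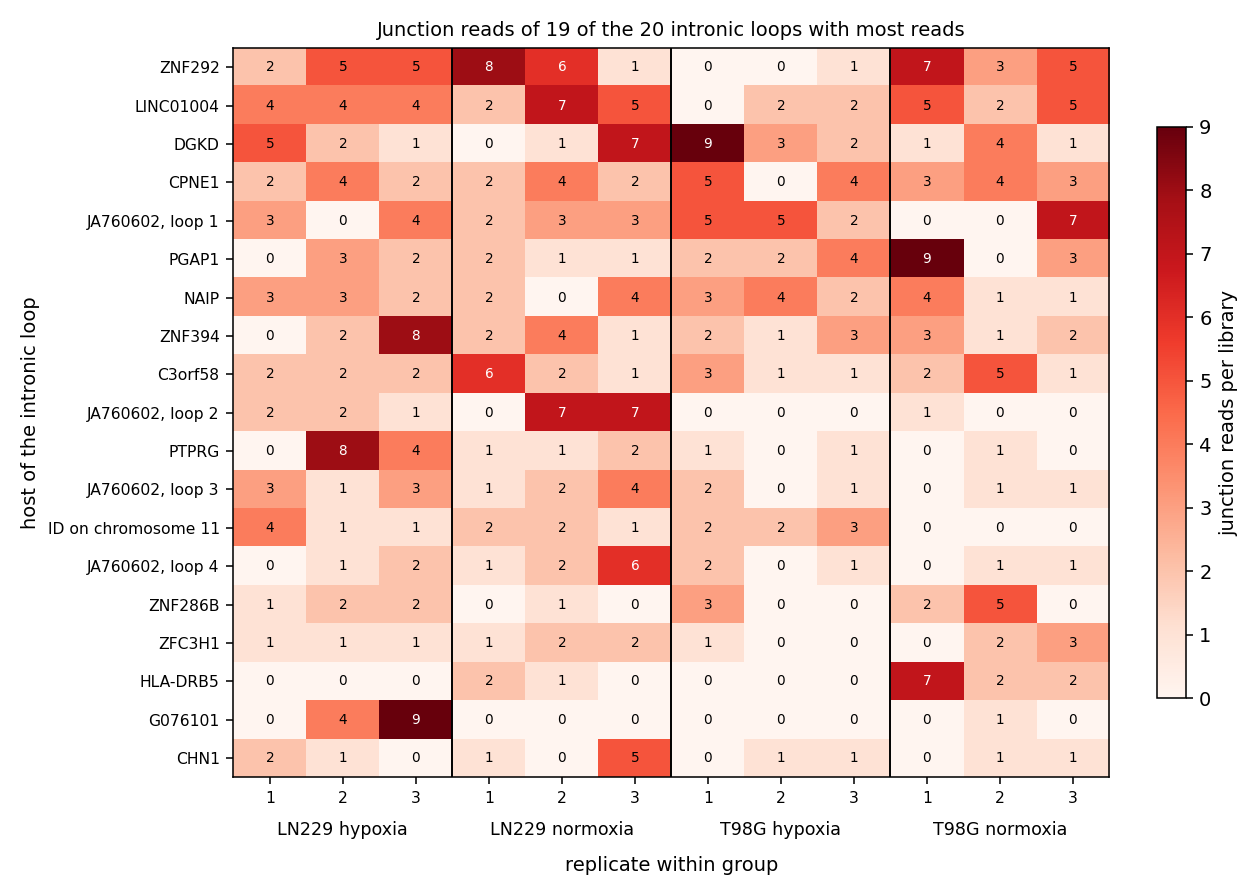
Junction reads (number and colour) of 19 of the 20 intronic loops with most reads (rows, by host; JA760602 loops are numbered by reads) in the 12 libraries (columns, replicates 1 to 3 of each group). No cell exceeds 9 reads, and the ZNF292 row holds 0, 0 and 1 reads in T98G hypoxia against 7, 3 and 5 in T98G normoxia.

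With at least 6 reads over the 12 libraries there were 76 intronic loops, and 5 of them (6.58%) were read only in hypoxia libraries, where 2.08% of all 2595 such circRNAs were. They came from HLA-B (10 reads), CAMK1D (7), CDK11B (7), CLK3 (6) and PTPRK (6). CAMK1D, a calcium and calmodulin-dependent kinase gene, had 1, 0 and 0 reads in LN229 hypoxia and 4, 2 and 0 in T98G hypoxia. The 911-nt CLK3 loop had 2, 3 and 0 reads in LN229 hypoxia and 1, 0 and 0 in T98G hypoxia, while its 913-nt neighbour had 1 read in T98G normoxia. PTPRK, a receptor tyrosine phosphatase gene, had 0, 2 and 3 reads in LN229 hypoxia and 0, 1 and 0 in T98G hypoxia. The CDK11B loop spans a region with a near-identical neighbour, so its host is uncertain. Another 5 (6.58%) were read only in normoxia, where 3.12% of all were: those of HLA-DRB5 (14 and 6 reads), SVIL (9), SMYD3 (8) and R3HDM2 (6). SVIL, an actin-binding protein gene, was read 5, 1 and 0 times in the LN229 normoxia libraries and once in each T98G normoxia library. The loop of SMYD3, a lysine methyltransferase gene, was read 1, 2 and 1 times in LN229 normoxia and 3, 0 and 1 times in T98G normoxia. Together the 2 intronic loops of SMYD3 had 11 reads, of which 1 was in T98G hypoxia replicate 2. No intronic loop was read only in T98G (0.771% of all circRNAs were) and 1 was read only in LN229 (1.66% of all), a JA760602 loop with 6 of its 7 reads in hypoxia replicate 2. A count of 0 allows an expected count of up to 3, be it in 1 library or summed over the libraries of a side. None of these loops is thus shown to be absent. Loops with few reads are more easily read on 1 side only. At least 10 reads were found in 33 of the 76 intronic loops and in 1338 of the 2595 circRNAs. The part of read number in these shares was not tested.

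Over all 4069 circRNA hosts, 506 (12.4%) had an intronic loop, and this share ran from 6.67% to 25% of the circRNA hosts in 6 gene groups. Of 44 genes of the hypoxia response and glycolysis, 25 were host to any circRNA and 3 to intronic loops: ZNF292, ENO2, the neuronal enolase gene, and GBE1, the glycogen branching enzyme gene, the last pair with 2 reads each. Of 38 glioblastoma drivers and growth factor genes, 23 had a circRNA and 4 an intronic loop, among them PVT1, a long non-coding RNA gene, and ATRX, a chromatin remodeller gene, with 2 reads each. Of 42 extracellular matrix and adhesion genes, 20 had a circRNA and 5 an intronic loop, led by SPARC, a secreted matrix glycoprotein gene (5 reads in 4 libraries). Of 50 chromatin regulators, 43 had a circRNA and 7 an intronic loop, led by CHD8, a chromatin remodeller gene, with 4 reads. Among 34 ubiquitin ligases they were 30 and 2 (NEDD4 with 4 reads and CUL5 with 2), and among 33 genes of lariat handling and RNA processing 21 and 3 (RBM39 with 3 reads, SF3B1 and U2AF1 with 2 each). ANKRD52, MCM5 and SIRT7, the 3 hosts of stable circular intronic RNAs best known from other human cells, had no circRNA read here.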

How the data were processed

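Total RNA of LN229 and T98G cells was depleted of ribosomal RNA and sequenced in 12 libraries, per the labels' protocols. The authors deposited a table of 12538 circRNAs with junction read counts per library, positions on hg19, a class, a catalogue listing and a predicted length; reads were handled with CASAVA 1.8 and BWA, per the submitters' processing notes. No source used here names the circRNA caller or its filters, which set which loops with few reads appear. The 12 deposited columns of log2 values were not used, and 1 empty line was dropped. The members and the gene lists were chosen with earlier results of these data known.

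Deposited counts were tested with edgeR 4.0.16 (R 4.3.3, limma 3.58.1) over circRNAs with at least 5 reads in at least 3 libraries, with trimmed-mean normalisation on total junction reads (4298 to 7608 per library), 1 mean per group in 1 fit over 12 libraries, and Benjamini-Hochberg adjustment at 0.05. DESeq2 1.42.0, other filters and scalings, omitted libraries and a replicate block were alternatives. The test was checked on simulated counts. Intronic and exonic loops were compared within libraries by exact sign-flip tests (scipy 1.17.1). Host and transcript types and transcript sequences came from GENCODE release 29 by identifier or symbol, never by position, because that release is on another build. The repeat search left out 1 host, and some genes are not reported here. The text names the tested loops, those among the 20 with most reads, the 3 shortest and the 3 longest, the hosts with most loops, list members, and loops chosen after their values were seen for repeats or for reads in 1 condition only. Same-numbered libraries deviated together only between T98G normoxia and LN229 normoxia (r = 0.46, 0.39 and 0.67 over tested circRNAs). Deviations were taken from a mean of 3 libraries, so these 3 values are not independent. Replicate 3 stood apart in both groups on the CYP24A1 circRNA, and its part in the other values was not tested. The values cannot show whether the numbers pair these groups, and the labels do not say.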

Additional observations from a re-analysis of the deposited data

How the results depend on the processing

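No intronic loop was called in any comparison with RLE size factors, with DESeq2, without the CYP24A1 circRNA, with looser filters (34 intronic loops tested at 2 reads in 3 libraries, 612 with no filter) or within the libraries of 1 line (1 intronic loop tested in each, ZNF292 in LN229 and JA760602 in T98G). With the replicate block, which fits the replicate number across all 4 groups, no intronic loop was called in any comparison. Over all 244 tested circRNAs that fit called 3 (1.23%) in LN229, 9 (3.69%) in T98G and 10 (4.1%) in the average over both lines. It called none in the other comparisons. Leaving out 1 library each gave 0 to 1 calls in T98G and in the average over both lines, and 0 in the other comparisons. The 1 call was ZNF292, without LN229 normoxia replicate 3, a fit that called 29 of 229 circRNAs (12.7%) in T98G and 41 (17.9%) in the average. With normoxia replicate 3 left out in both lines the count was again 1 in T98G (edgeR adjusted p = 0.0335) and 1 in the average (edgeR adjusted p = 0.0188), where 18.1% and 23.6% of all 216 tested circRNAs were called. Over the alternatives in which it was tested, which leaves out the fit within T98G libraries, the ZNF292 log2 fold change in T98G ran from -5.40 to -2.89, with edgeR adjusted p from 0.0261 to 0.452 when 1 library was left out. In LN229 it ran from -0.88 to 0.03 when 1 library was left out, and turned to 0.00 without LN229 hypoxia replicate 1 (0.0016 before rounding) and to 0.03 (0.0277) without LN229 normoxia replicate 1. The share of reads moved to 1.12% in LN229 hypoxia, 1.24% in LN229 normoxia, 0.783% in T98G hypoxia and 1.21% in T98G normoxia with circBase loops alone. It moved to 3.37% in T98G hypoxia without CYP24A1. Leaving out 1 library each, it ranged from 2.91% to 3.58% in LN229 hypoxia, 3.27% to 4.04% in LN229 normoxia, 2.52% to 2.84% in T98G hypoxia and 2.83% to 3.57% in T98G normoxia. Loops per library numbered 67.3 in LN229 hypoxia, 67.0 in LN229 normoxia, 52.7 in T98G hypoxia and 45.0 in T98G normoxia with at least 2 reads. With circBase loops alone they numbered 39.7 in LN229 hypoxia, 43.3 in LN229 normoxia, 31.0 in T98G hypoxia and 36.3 in T98G normoxia. The 4 differences from exonic loops kept their direction and their side of 0.05 against sense overlapping loops (circBase -19.2 against -57.2 percentage points, recurrence -7.70 against -18.8), with at least 2 reads in the library and without each library. The causes were not tested. Counts of 0 to 9 reads per loop and library limit every single-loop comparison.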
